A study of Mus musculus with 12 samples.

Results

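Choroid plexus epithelium genes were followed in RNA-Seq of 2 brain regions, cerebellum and cerebral cortex, from mice aged 1 month. The 30 genes, known as markers of this epithelium, were found by matching the versioned gene identifier of each row to its GENCODE vM21 name, and all 30 were present among 55536 genes. The 12 libraries formed 4 groups of 3: WT cerebellum, *Snx14*-KO cerebellum, WT cortex and *Snx14*-KO cortex. The titles number the mice 1 to 3 in each group, without saying whether the same number in both tissues is the same mouse. *Snx14*-KO mice were homozygous for a frameshift deletion made by genome editing of C57BL/6J embryos, and the line was backcrossed to C57BL/6J before use. The tissue was dissected on ice and not sorted, so each library holds a mix of cell types. The genes on this list were chosen with earlier results of these data known.

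The choroid plexus is a sheet of epithelial cells around leaky capillaries that hangs in the brain ventricles and makes cerebrospinal fluid. Its cells pump ions and water, carry hormones and vitamins from blood to fluid, and are sealed by tight junctions. The fourth ventricle lies directly under the cerebellum and the lateral ventricles lie inside the forebrain. Several of the genes are also used elsewhere: *Enpp2* (autotaxin) by oligodendrocytes, *Lmx1a* by cerebellar unipolar brush cells, and *Slc13a4*, a sulfate transporter, by the meninges.

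Gene counts per library totaled between 16672589 and 19887427. Values are given as CPM after TMM normalization, which scales each library by its size and composition. *Snx14* itself was at 63.5 to 66.9 CPM in WT and 10.4 to 11.2 CPM in *Snx14*-KO cerebella, and at 53.5 to 59.8 CPM in WT and 7.68 to 8.49 CPM in *Snx14*-KO cortices. The genotype labels therefore separated without overlap in both tissues. The summed level of 10 cerebellar neuron genes was 5370 to 7473 CPM in cerebella and 216 to 264 CPM in cortices, and that of 10 cortical neuron genes was 141.5 to 184.5 CPM and 816.5 to 843.3 CPM.

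Promoter sequence was examined because most of the genes moved together. A RefSeq table (GRCm38.p6), covering 250 bases before to 50 after each start site, held 24 of the 30 genes, without *Ttr*, *Folr1*, *Clic6*, *Enpp2*, *Sostdc1* and *Lbp*. The motif TAATCC, the letters that OTX-type homeobox factors bind, was searched on both strands. It was found in 2 of 24 genes (8.33%), *Ace* and *Mfrp*, against 8.14% of all 27025 genes in the table. The forkhead motif TGTTTAC was found in 1 of 24 (4.17%), *Prlr*, against 4.05% of all genes. The windows of *Ace*, *Mfrp* and *Kl*, the gene nearest *Ttr* in pattern with a pseudocount of 1, are printed 5′ to 3′, with TAATCC or its reverse complement in capitals. Each stops before the first base of the gene in GENCODE vM21, which in *Ace* and *Mfrp* lies before the RefSeq start site. *Kl* lies at chr5:150952357-150952606, *Mfrp* at chr9:44101520-44101728 and *Ace* at chr11:105967698-105967944, all on the plus strand.
Kl: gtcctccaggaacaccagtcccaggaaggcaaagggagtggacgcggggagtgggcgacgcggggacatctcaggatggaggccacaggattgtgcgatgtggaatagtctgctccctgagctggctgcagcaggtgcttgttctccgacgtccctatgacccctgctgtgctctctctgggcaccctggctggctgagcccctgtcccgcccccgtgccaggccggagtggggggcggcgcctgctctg
Mfrp: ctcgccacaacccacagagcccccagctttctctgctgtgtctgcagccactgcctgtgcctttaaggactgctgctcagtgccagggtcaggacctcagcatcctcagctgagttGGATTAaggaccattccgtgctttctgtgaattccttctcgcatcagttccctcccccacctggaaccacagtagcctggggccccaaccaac
Ace: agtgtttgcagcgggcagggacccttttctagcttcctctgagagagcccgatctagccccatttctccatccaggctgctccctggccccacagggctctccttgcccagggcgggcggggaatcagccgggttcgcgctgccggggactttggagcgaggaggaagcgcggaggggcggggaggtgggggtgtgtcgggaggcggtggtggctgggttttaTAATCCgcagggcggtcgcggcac
The motif began 27 bases before the RefSeq start site in *Ace* and 134 bases before it in *Mfrp*, where it was on the opposite strand. The printed stretches hold 247 bases for *Ace* and 209 for *Mfrp*, so they end short of that site. Neither motif was found in the window of *Kl*.

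Amounts of choroid plexus RNA varied widely among cerebella of the same genotype. *Ttr* (ENSMUSG00000061808.4, chromosome 18), which encodes transthyretin, the carrier of thyroid hormone and retinol in cerebrospinal fluid, was at 53.15, 2514 and 6851 CPM in WT cerebella 1, 2 and 3. It was at 1870, 3004 and 881 CPM in *Snx14*-KO cerebella 1, 2 and 3. The lowest and the highest cerebellum were thus both WT, 129-fold apart, and the *Snx14*-KO cerebella lay between them. In read counts, *Ttr* took 957 of the gene counts of WT cerebellum 1 (0.00544%) and 127733 of those of WT cerebellum 3 (0.726%). In bulk tissue, fewer cells of a type and less RNA per cell cannot be told apart.

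The other genes were compared with *Ttr* by the order of the libraries. WT cerebellum 1 was the lowest of the 6 cerebella for 28 of 30 genes, against 17.0% of all genes tested, and WT cerebellum 3 was the highest for 30 of 30, against 17.7%. Both held for 28 of 30, against 4.85% of all genes. The summed level of the 30 genes was 523.6, 4800 and 12052 CPM in WT cerebella 1, 2 and 3, and 3658, 5127 and 1936 CPM in *Snx14*-KO cerebella 1, 2 and 3. The most frequent order, WT 1 below *Snx14*-KO 3, *Snx14*-KO 1, WT 2, *Snx14*-KO 2 and WT 3, was that of 13 genes, and 7 more differed from it only in the place of WT 2 and *Snx14*-KO 2. *Snx14*-KO cerebellum 3 was the lowest of its genotype for 29 of 30, against 36.5% of all genes.

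**Figure D1:**
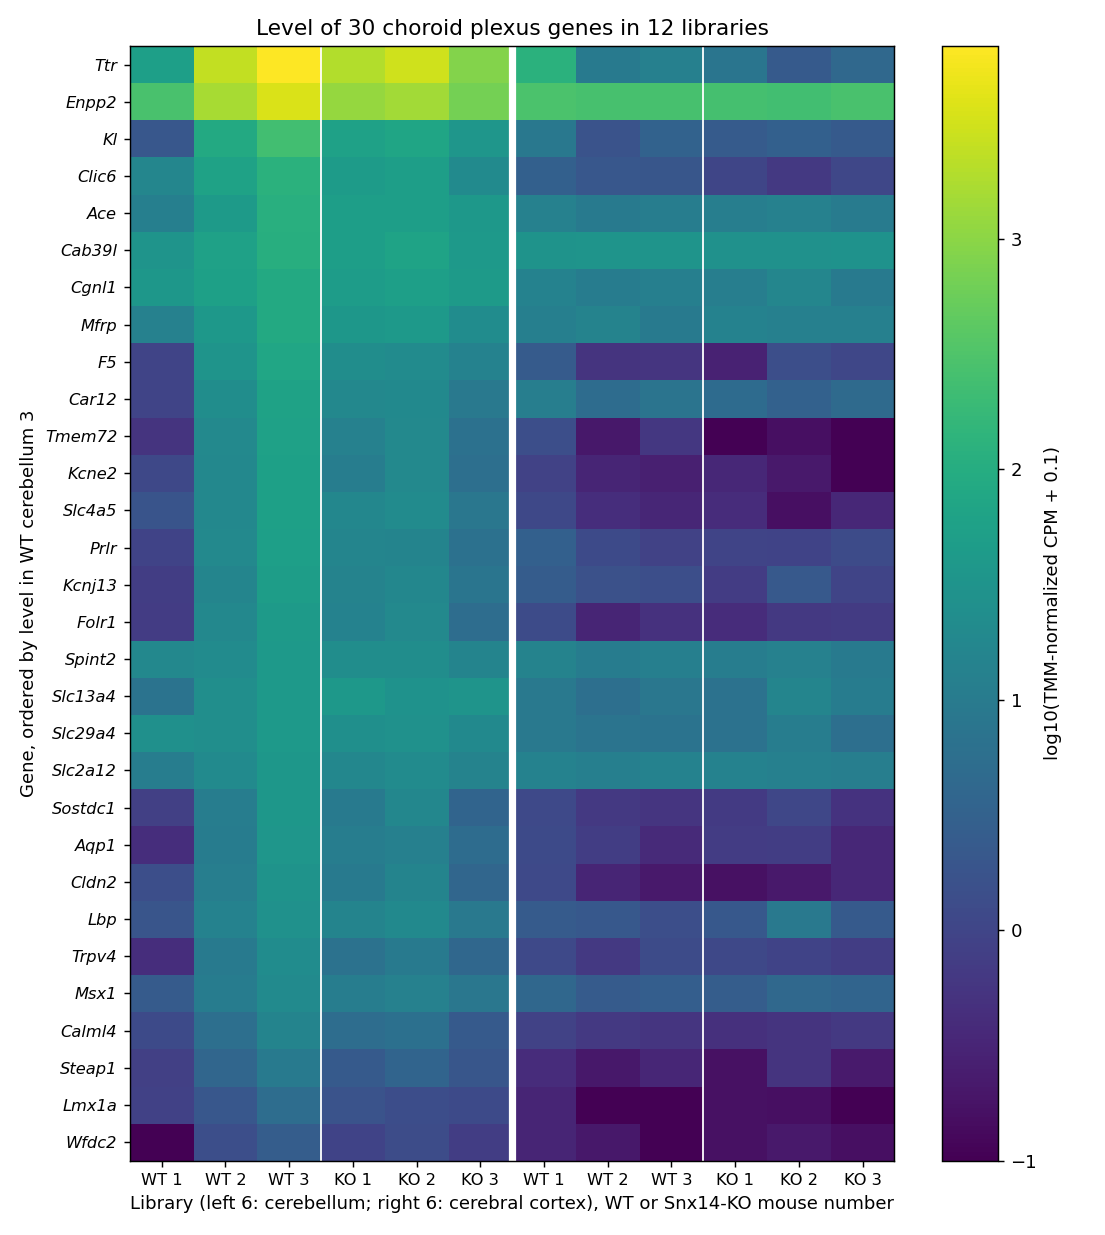
Level of the 30 genes, as log10 of TMM-normalized CPM plus 0.1 (color), in each of the 12 libraries (columns; left 6 cerebellum, right 6 cortex), with genes ordered by their level in WT cerebellum 3. WT cerebellum 1 is dark next to the other cerebella for most genes, WT cerebellum 3 is the brightest for all 30, and among cortices WT cortex 1 has the brightest *Ttr* (121 CPM).

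The size of the gap between WT cerebella 1 and 3 set the genes apart. For the 29 genes with over 3 counts in WT cerebellum 1, the fold of WT cerebellum 3 over WT cerebellum 1 ran from 1.49 to 131 with a median of 15.9. It was over 10 for 18 genes, 4 to 10 for 6 and under 4 for 5. *Wfdc2*, a small secreted protein, had 0 counts in WT cerebellum 1 and is given no fold. These folds describe 2 libraries and carry no test.

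Among secreted and carrier proteins the fold was 13.0 to 129, with a median of 65.4 over 6 genes. *Kl* (klotho, ENSMUSG00000058488.7, chr5:150952607-150993817), a co-receptor for a phosphate-regulating hormone that is also shed into the fluid, was at 1.94, 86.9 and 237.6 CPM in WT cerebella and 58.0, 69.9 and 35.3 CPM in *Snx14*-KO cerebella. *F5*, coagulation factor V, was at 0.889, 31.5 and 72.2 CPM in WT and 23.4, 21.3 and 14.1 CPM in *Snx14*-KO cerebella. Both genes were lowest of the 6 cerebella in WT cerebellum 1, at levels inside the range of the cortices. *Enpp2* (ENSMUSG00000022425.16, chr15:54838901-54952892), which makes the signaling lipid lysophosphatidic acid, was at 280, 1609 and 3638 CPM in WT and 1197, 1439 and 672 CPM in *Snx14*-KO cerebella. It was at 234 to 298 CPM in the 6 cortices, so WT cerebellum 1 lay inside the range of the cortices. *Sostdc1*, an antagonist of BMP and WNT signals, ran from 0.722 CPM in WT cerebellum 1 to 35.7 CPM in WT cerebellum 3, and *Lbp*, which binds bacterial lipopolysaccharide, from 1.78 to 28.3 CPM.

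Ion and water transport genes gave folds of 7.43 to 102, with a median of 68.4 over 7 genes. *Aqp1*, the water channel of the apical membrane, was at 0.333, 10.7 and 34.0 CPM in WT and 11.1, 12.4 and 4.98 CPM in *Snx14*-KO cerebella. *Kcnj13*, an inwardly rectifying potassium channel, was at 0.666, 15.9 and 49.0 CPM in WT and 14.2, 16.9 and 7.47 CPM in *Snx14*-KO cerebella. In each, the *Snx14*-KO libraries lay between WT cerebellum 1 and WT cerebellum 3. *Slc4a5*, a sodium bicarbonate cotransporter, *Kcne2*, a potassium channel subunit, *Trpv4*, a calcium-permeable channel, and *Car12*, a membrane carbonic anhydrase, had folds of 33.0, 56.6, 68.4 and 69.8. *Clic6*, of the chloride intracellular channel family, stood at 16.7 CPM in WT cerebellum 1, and its fold was the 7.43.

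Solute carriers differed among themselves. *Folr1*, the folate receptor of the plexus, was at 0.611, 17.6 and 42.9 CPM in WT and 13.6, 18.7 and 5.19 CPM in *Snx14*-KO cerebella, a 70.2-fold gap between WT cerebella 1 and 3. *Slc29a4*, a monoamine transporter, was at 26.5, 24.3 and 39.6 CPM in WT and 25.1, 27.8 and 19.5 CPM in *Snx14*-KO cerebella. Its 1.49-fold gap was the narrowest of the 29 genes. *Slc13a4* was at 6.78, 23.9 and 41.2 CPM in WT and 37.3, 28.6 and 31.2 CPM in *Snx14*-KO cerebella, so that all *Snx14*-KO cerebella lay above WT cerebella 1 and 2. *Slc2a12*, a glucose transporter, ran from 11.2 to 36.1 CPM.

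Junction and surface genes gave folds of 2.31 to 131 and a median of 11.4 over 8 genes. The widest was *Tmem72*, a membrane protein, at 0.444 CPM in WT cerebellum 1 and 58.2 CPM in WT cerebellum 3. *Prlr*, the prolactin receptor, had 64.1-fold and *Cldn2*, a pore-forming claudin of the tight junction, 23.3-fold. *Ace*, angiotensin-converting enzyme, *Mfrp*, a frizzled-related membrane protein, *Cgnl1*, a junction scaffold, and *Spint2*, a protease inhibitor, had 9.25-, 6.42-, 2.37- and 2.31-fold. Each of these 4 genes was at 12 CPM or more in WT cerebellum 1. Of the transcription factors and intracellular proteins, *Msx1*, a homeobox factor, *Lmx1a*, a LIM homeobox factor of the embryonic roof plate, *Calml4*, a calmodulin-like protein, and *Cab39l*, a kinase adaptor, had 8.58-, 6.62-, 13.4- and 3.35-fold.

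Counts per transcript length (TPM) put the genes on a common scale. In WT cerebellum 3, *Ttr* was at 19805 TPM and *Enpp2* at 2159 TPM, followed by *Kcnj13* (132), *Kcne2* (110), *Clic6* (109) and *Kl* (87.3). The lowest were *Wfdc2* at 7.74 TPM and *Lmx1a* at 5.20 TPM. The order depends on the annotated length. *Tmem72* had 1085 counts over 17177 exon bases (11.6 TPM) and *Kcnj13* 913 counts over 1270. Read pairs on exons of several genes were counted for each gene, without regard to strand. Of the exon bases of *Kcnj13*, 49.1% are also exons of *Gigyf2*, and of those of *Mfrp*, 37.9% are also exons of other genes, while 22 of the 30 genes share none.

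The genes were then scaled to *Ttr* in 2 ways, and the outcome depended on the way. The plain ratio to *Ttr* varied less than 2 times over all 6 cerebella for 5 of 29 genes, and over the 5 cerebella other than WT cerebellum 1 for 17 of 29. It varied least for *Cldn2*, 1.18 times over these 5. For the other scaling WT cerebellum 1 was taken as the baseline, a choice made after its values were seen, and the increase of each gene over it was divided by that of *Ttr*, in CPM per 100 CPM of *Ttr*. The highest of these values over the 5 cerebella was less than 2 times the lowest for 19 genes, and less than 1.5 times for 11. *Slc2a12* varied least, at 0.340 to 0.384, followed by *Cab39l* at 1.02 to 1.16, whereas their plain ratios varied 3.09 and 3.02 times. Both scalings gave less than 2 times for 15 of the 29 genes. By the increase over the baseline, *Folr1* ran from 0.554 to 0.716 and *Enpp2* from 39.3 to 54.0. *Cab39l* and *Slc2a12* were already at 31.9 and 11.2 CPM in WT cerebellum 1, and at 27.5 to 31.8 and 11.4 to 14.1 CPM in the cortices.

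**Figure D2:**
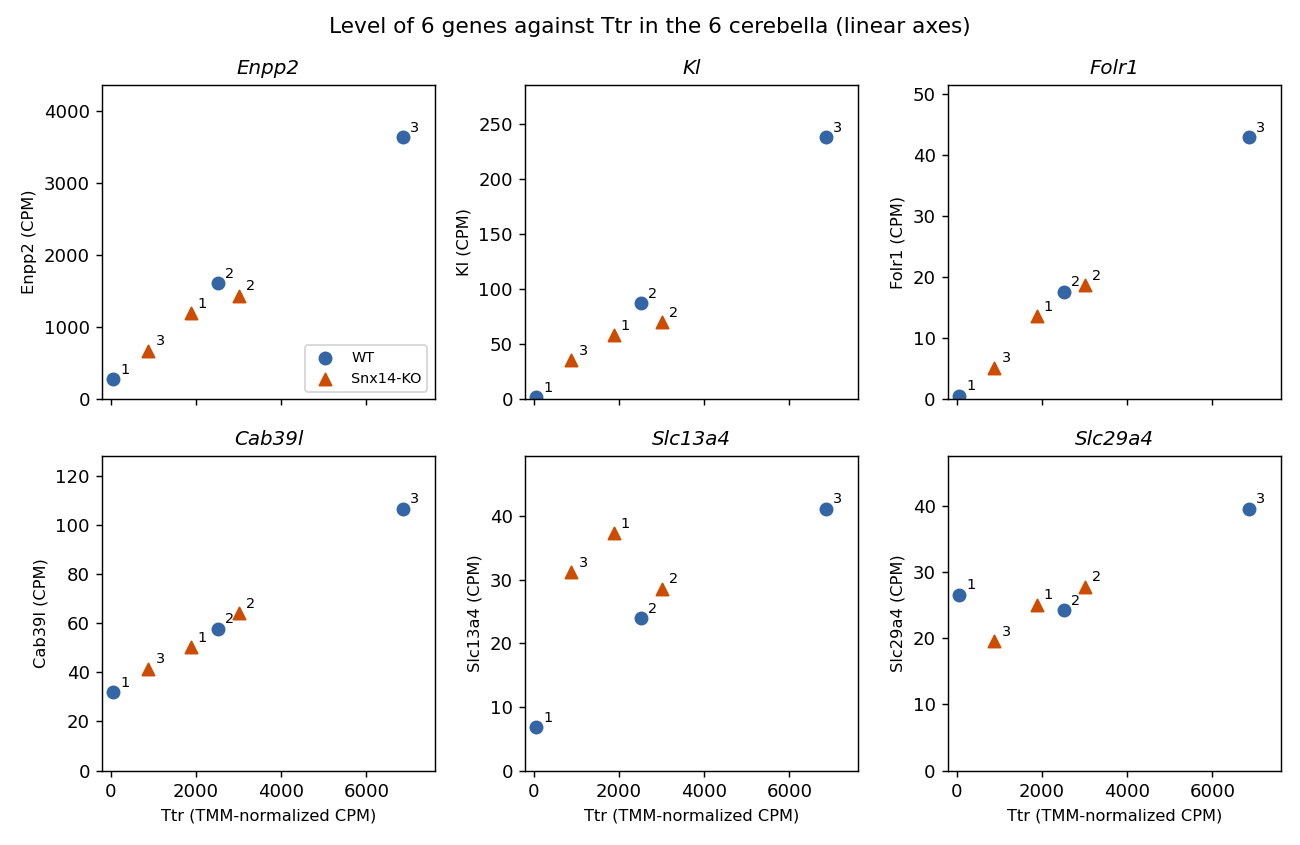
Level of *Enpp2*, *Kl*, *Folr1*, *Cab39l*, *Slc13a4* and *Slc29a4* against *Ttr*, both in TMM-normalized CPM on linear axes, in the 3 WT (circles) and 3 *Snx14*-KO cerebella (triangles), with mouse numbers. The first 4 genes are lowest in WT cerebellum 1 and highest in WT cerebellum 3, as *Ttr* is. *Slc13a4* shares this and sits at 28.6 to 37.3 CPM in *Snx14*-KO cerebella over a range of *Ttr* from 881 to 3004 CPM, and *Slc29a4* is at 26.5 CPM in WT cerebellum 1.

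Both scalings varied 2 times or more for 6 genes: *F5*, *Slc13a4*, *Lbp*, *Ace*, *Msx1* and *Lmx1a*. *Clic6* and *Wfdc2* varied 4.02 and 2.07 times by the increase over the baseline, but less than 2 times by the plain ratio (1.46 times for *Clic6*). Of the genes given a value by both, *Slc13a4* varied most, and its increase ran from 0.506 in WT cerebellum 3 to 2.95 in *Snx14*-KO cerebellum 3. By the same measure, *Ace* was at 1.30 and 1.46 in WT and 2.20, 1.36 and 3.04 in *Snx14*-KO cerebella, and *Msx1* at 0.332 and 0.266 in WT and 0.491, 0.369 and 0.699 in *Snx14*-KO cerebella. *Slc29a4* and *Spint2* were below the baseline in at least 1 library. Genotype differences in these scaled values were not tested.

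To ask whether loss of SNX14 changed these genes, *Snx14*-KO and WT libraries were tested by edgeR (quasi-likelihood), and a gene was called at an adjusted p under 0.05 and a log2 fold change beyond 0.50 in size. In cerebellum, 0 of 30 genes were called, against 0.00549% of 18201 genes tested, which is *Snx14* alone. An unadjusted p under 0.05 was reached by 0 of the 30, against 2.37% of all genes with a negative and 5.78% with a positive log2 fold change. DESeq2 also called 0 of the 30, against 0.0604% of all genes as lower and 0.841% as higher. The log2 fold change was below 0 for 29 of 30 genes, against 50.1% of all genes, and its median was -0.66, against -0.000616 over all genes. *Ttr* averaged 3139 ± 3442 CPM (SD, n = 3) in WT and 1918 ± 1063 CPM (SD, n = 3) in *Snx14*-KO mice. Its log2 fold change was -0.71, with a standard error of 1.09 (adjusted p = 0.946 by edgeR with Benjamini-Hochberg adjustment). *Slc13a4* was the only gene with a positive value, 0.44 (standard error 0.467, adjusted p = 0.915 by the same edgeR test). For 28 of 30 genes the *Snx14*-KO cerebella lay inside the range of the WT cerebella, against 20.4% of all genes.

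The negative direction rested on WT cerebellum 3. Without WT cerebellum 3, 27 of 30 genes had a positive log2 fold change, against 49.2% of all genes in that setting, and the median was 0.40. Without WT cerebellum 1, all 30 were negative, against 49.7% of all genes, and the median was -1.23. In that setting, 23 of the 30 had a negative value with an unadjusted p under 0.05, against 2.71% of all genes, and 0 were called by edgeR. *Ttr* went from -1.29 without WT cerebellum 1 to 0.58 without WT cerebellum 3.

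**Figure D3:**
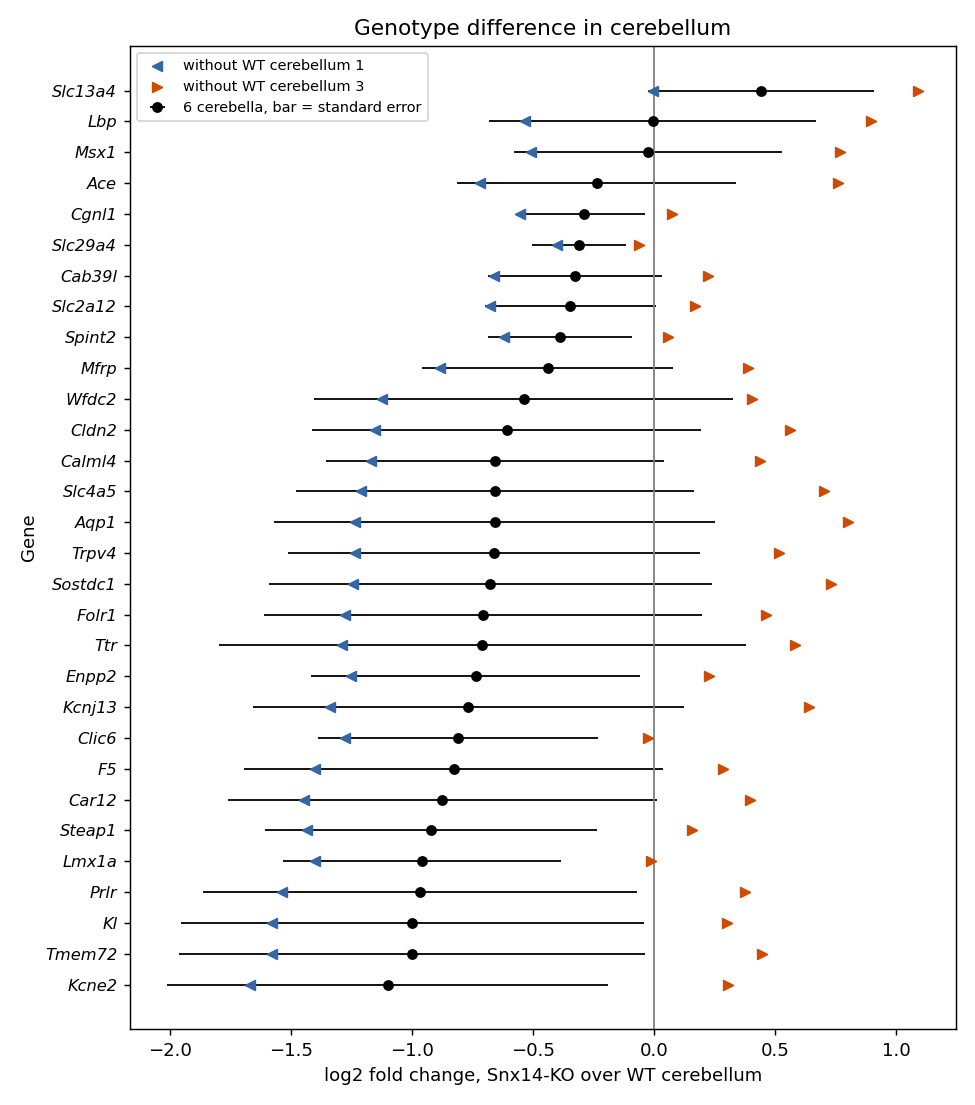
Log2 fold change of *Snx14*-KO over WT cerebellum for the 30 genes (black points, bars are the standard error worked back from the edgeR F statistic), with the value without WT cerebellum 1 (blue) and without WT cerebellum 3 (orange). All 30 genes are below 0 without WT cerebellum 1 and 27 are above 0 without WT cerebellum 3.

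Markers of neighboring cell types were read in the same libraries. The summed level of 12 ependymal genes, from the ciliated cells that line the ventricles, was 59.8, 70.0 and 133.6 CPM in WT cerebella 1, 2 and 3 and 74.3 to 90.3 CPM in *Snx14*-KO cerebella. Of these, 7 of 12 were lowest in WT cerebellum 1 and highest in WT cerebellum 3, against 4.85% of all genes. *Foxj1*, the ciliogenesis factor, was at 7.22, 12.6 and 25.5 CPM in WT cerebella. *Rarres2*, with the highest mean level of the list, was instead lowest in WT cerebellum 2, at 25.4, 20.9 and 31.9 CPM in WT cerebella. The summed level of 13 meningeal fibroblast genes had another pattern, at 137 to 213 CPM in WT and 309 to 327 CPM in *Snx14*-KO cerebella. All 13 had a positive log2 fold change of 0.32 to 1.46, 12 of them with an unadjusted p under 0.05, against 5.78% of all genes in that direction. EdgeR called 0 of the 13 and DESeq2 11, against 0.841% of all genes as higher. The count by edgeR was 4 without WT cerebellum 2 (against 0.0481% of all genes as higher), 5 without *Snx14*-KO cerebellum 2 (1.31%) and 12 with no filter on low counts (1.05%). *Col1a2*, a collagen chain, was at 35.1, 48.0 and 33.7 CPM in WT and 77.3, 70.2 and 76.1 CPM in *Snx14*-KO cerebella. Endothelial genes summed to 85.4 to 119 CPM and red blood cell genes to 119 to 415 CPM, and none of either list was lowest in WT cerebellum 1 and highest in WT cerebellum 3. Pineal genes summed to at most 1.45 CPM, oligodendrocyte genes to 11128 to 14483 CPM and unipolar brush cell genes to 901 to 1186 CPM in cerebella. The part of these cell types in the levels of the choroid plexus genes was not tested.

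**Figure D4:**
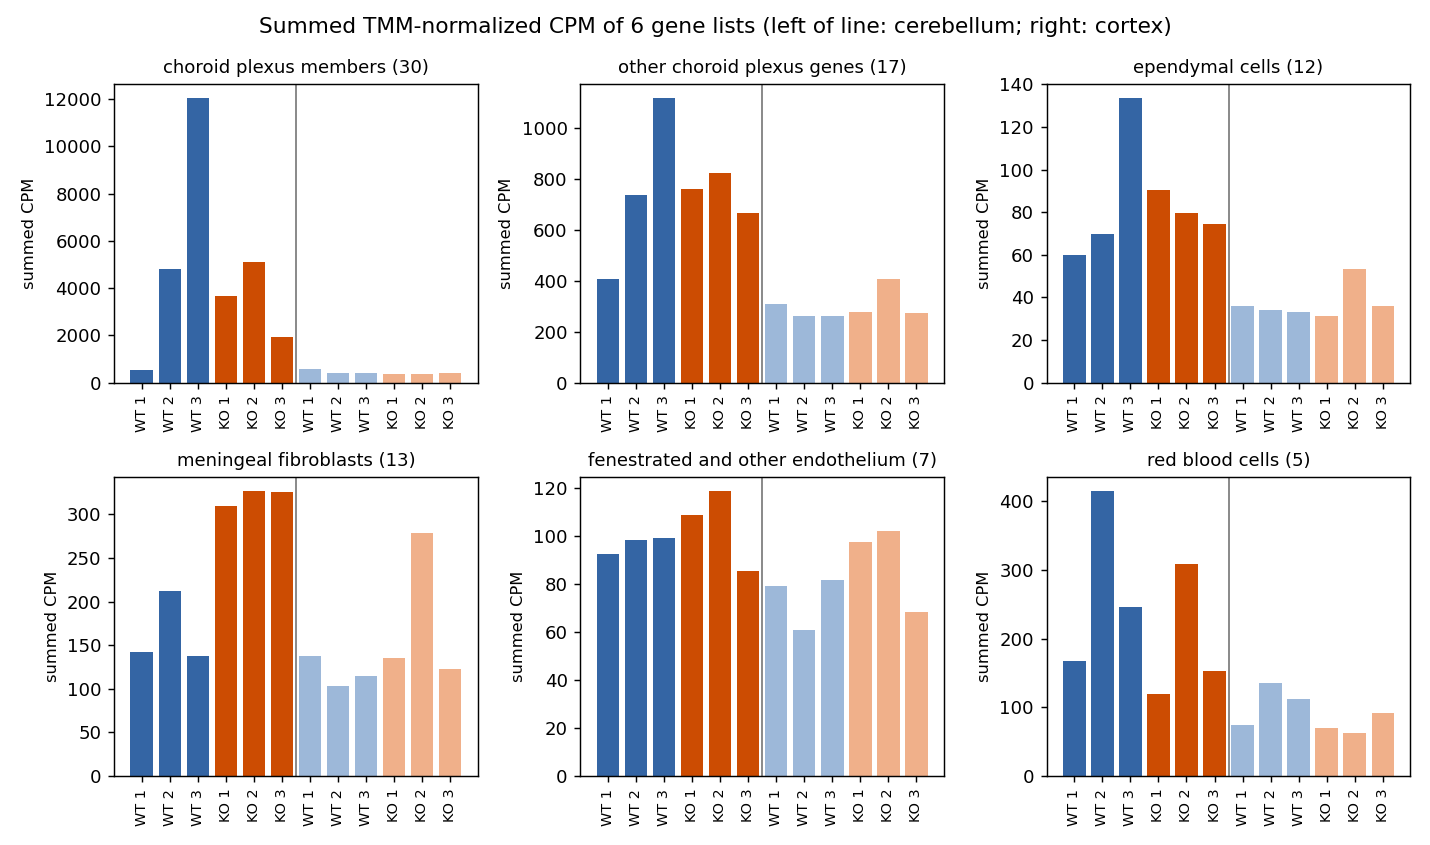
Summed TMM-normalized CPM of 6 gene lists (number of genes in brackets) in the 6 cerebella (left of the line) and 6 cortices (right), with bars from 0 and 1 bar per library (blue WT, orange *Snx14*-KO). The choroid plexus bars run from 523.6 to 12052 CPM within WT cerebellum, while the meningeal bars are 309 to 327 CPM in *Snx14*-KO and 137 to 213 CPM in WT cerebellum.

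A second list of 17 choroid plexus genes, outside the 30, was read in the same way. Of these, 12 were lowest in WT cerebellum 1 and highest in WT cerebellum 3, against 4.85% of all genes, and the list summed to 406.5, 736.5 and 1119 CPM in WT and 666 to 824 CPM in *Snx14*-KO cerebella. None was called between genotypes in cerebellum by edgeR (0 with an unadjusted p under 0.05). *Igfbp2*, an IGF-binding protein, was at 17.8, 71.5 and 137.9 CPM in WT cerebella, and *Slc12a2*, the sodium potassium chloride cotransporter, at 170.2, 219.1 and 251.1 CPM. *Igf2*, which is also made by meninges, was instead highest in *Snx14*-KO cerebellum 1 at 221.0 CPM, next to 220.5 CPM in WT cerebellum 3.

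Genes with the pattern most like that of *Ttr* were ranked over all 12 libraries. The measure was the root mean square difference in log2(CPM + 1) after subtracting each tissue's mean. Of 17027 genes ranked, the nearest was *Kl*, then *Car12*, *Tmem72*, *Prlr* and *F5*, and 20 of the 50 nearest were among the 30. With a pseudocount of 0.1 in place of 1, *Tmem72* was the nearest and *Kl* ranked 5. The 12 nearest outside the 30 were *Dsp*, *Abca4*, *1500015O10Rik*, *Prr32*, *Wdr86*, *Htr2c*, *Cldn1*, *Krt18*, *Gm11651*, *Npr3*, *Pon3* and *Gm16090*, and 8 of these stayed among the 12 with a pseudocount of 0.1. Of these, 5 stand in the second choroid plexus list, and *Gm11651* shares exon bases, and so read pairs, with *Ace*. *Abca4*, a lipid flippase, was at 1.67, 17.4 and 48.3 CPM in WT and 15.3, 17.6 and 7.79 CPM in *Snx14*-KO cerebella. *1500015O10Rik* was at 3.44, 31.2 and 90.6 CPM in WT and 26.0, 40.1 and 15.5 CPM in *Snx14*-KO cerebella, and *Dsp*, the desmosome protein desmoplakin, was at 4.99 CPM in WT cortex 1. Of the 30, 28 were ranked, without *Ttr* itself and *Wfdc2*, and the last of these 28 was *Slc29a4*, at rank 1703 of 17027.

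In cortex, *Enpp2* made up most of the summed level of the 30 genes, and *Ttr* was far higher in WT cortex 1 than in the others. It was at 121, 9.87 and 12.5 CPM in WT cortices 1, 2 and 3 and at 7.43, 2.25 and 4.29 CPM in *Snx14*-KO cortices 1, 2 and 3, so the 2 genotypes did not overlap. WT cortex 1 was the highest of the 6 cortices for 19 of 30 genes. Among the 21 that passed the filter on low counts it was the highest for 11, against 14.1% of all genes tested in cortex, and *Snx14*-KO cortex 2 for 6, against 22.9%. *Kl* was at 8.39 CPM in WT cortex 1 and 1.66 to 3.24 CPM in the others, and *Tmem72* at 1.33 CPM against 0 to 0.512 CPM. *Cldn2* was at 1.06 CPM, which is 20 counts, against 0.0624 to 0.238 CPM. Scaled to *Ttr* over the mean of the other 5 cortices, the increase in WT cortex 1 fell inside the range of the cerebella for 9 of 29 genes, above it for 14 and below it for 6. *Slc13a4*, *Lbp* and *Mfrp*, among those below it, were lower in WT cortex 1 than the mean of the others. *Folr1* was at 0.662 per 100 CPM of *Ttr* (22 counts) and *Kcne2* at 0.568 (15 counts), both inside the range of the cerebella. Neither of these 2 genes passed the filter on low counts in cortex. *Car12*, at 5.71, was above its range of 0.638 to 0.958.

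Of the 10 cerebellar neuron genes, 4 were also highest in WT cortex 1 among the cortices, against 14.1% of all genes tested in cortex. The sum of the list was 258.8 CPM there and 264.1 CPM in *Snx14*-KO cortex 2. *Gabra6*, the granule cell receptor subunit, was at 2.02 CPM in WT cortex 1, against 0.0548 to 0.812 CPM in the other 5 cortices and 481 to 690 CPM in cerebella. *Cbln3* was at 3.29 CPM against 0.493 to 1.75 CPM, and *Barhl1* at 0.584 CPM against 0 to 0.0536 CPM. These 3 genes were chosen after their values were seen. *Pcp2*, also among the 4, was at 6.69 CPM against 3.73 to 6.60 CPM. *Calb1*, *Car8*, *Zic1* and *Zic2* were instead highest in *Snx14*-KO cortex 2. *Cbln1* was highest in WT cortex 3 and *En2* in WT cortex 2. These genes, too, were named after their values were seen. The part of cerebellar RNA in WT cortex 1 was not tested. In *Snx14*-KO cortex 2, meningeal genes summed to 279 CPM, against 103 to 137 CPM in the other cortices, and *Lbp* was at 8.88 CPM and *Slc13a4* at 15.4 CPM, their highest in cortex.

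Of the 30 genes, 21 passed the filter on low counts in cortex, and 9 did not: *Folr1*, *Kcne2*, *Cldn2*, *Slc4a5*, *Calml4*, *Tmem72*, *Steap1*, *Wfdc2* and *Lmx1a*. None of the 21 was called by edgeR, against 0.00548% of 18255 genes. With no filter on low counts, the same test called 5 of all 30, against 0.472% of 31561 genes, with *Ttr*, *Clic6*, *Car12* and *Tmem72* lower and *Lbp* higher in *Snx14*-KO cortex. DESeq2 gave an adjusted p for 13 of the 21 and none for the other 8, which included *Ttr* and *Clic6*, and it called 0 of the 13, against 0.0329% of all genes as lower and 0.0164% as higher. An unadjusted p under 0.05 was reached by 3 genes with a negative log2 fold change, against 2.26% of all genes, and by 1 with a positive value, against 2.24%. *Ttr* had -3.38 (standard error 0.855, adjusted p = 0.883 by edgeR with Benjamini-Hochberg adjustment), which was -1.27 without WT cortex 1. *Clic6*, at 2.92, 1.98 and 1.88 CPM in WT and 0.937, 0.548 and 0.953 CPM in *Snx14*-KO cortices, had -1.48 (standard error 0.335, adjusted p = 0.827 by the same edgeR test). *Car12* had -0.92, which was -0.54 without WT cortex 1, and *Lbp* had 1.21, which was 0.17 without *Snx14*-KO cortex 2. *Ttr*, *Clic6*, *Car12* and *Cab39l* were lower without overlap between genotypes, 4 of 21 genes, against 4.67% of all genes in that direction. The interaction of genotype and tissue was called for 0 of 30 genes by edgeR, against 0% of 19380 genes. An unadjusted p under 0.05 was reached by 0 of the 30, against 1.71% of all genes below 0 and 3.97% above 0, and DESeq2 called 0 of the 28 for which it gave an adjusted p, against 0.00516% and 0.201%. With no filter, edgeR called 4 of the 30, against 1.21% of 34466 genes, with *Enpp2* and *Lbp* below 0 and *Ttr* and *Tmem72* above 0. For *Ttr* it was 2.67 (standard error 1.72, adjusted p = 1.00 by edgeR), which was 0.57 without WT cortex 1 and 3.96 without WT cerebellum 3.

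Comparing cerebellum with cortex gave most of the calls. In WT mice, 27 of 29 genes tested were called higher in cerebellum than in cortex, against 19% of 18543 genes, with a median log2 fold change of 3.61. *Folr1*, *Kcne2*, *Cldn2*, *Slc4a5*, *Calml4*, *Tmem72*, *Steap1* and *Lmx1a* did not pass the filter on low counts among cortices, and all of them were called here. Their tests leaned on counts in cerebellum, so the filter itself favored a higher call for them. *Ttr* had 6.04 (standard error 1.498, adjusted p = 0.00560 by edgeR with Benjamini-Hochberg adjustment), which was 4.75 without WT cerebellum 3 and 8.14 without WT cortex 1. Of the 27 genes called, 23 moved by over 1.5-fold without WT cerebellum 3 and 10 without WT cortex 1. The WT tissues nevertheless overlapped for *Ttr*, since WT cerebellum 1 (53.15 CPM) lay below WT cortex 1 (121 CPM). For 11 of 29 genes they did not overlap, against 31.6% of all genes in that direction. *Slc2a12* (log2 fold change 0.77, adjusted p = 0.0655) and *Car12* (1.88, adjusted p = 0.0903) were not called by edgeR, and all 6 cortices lay above WT cerebellum 1 for both, as they did for *Trpv4*. *Wfdc2* was not tested. Without WT cerebellum 1, all 30 genes were tested and called, against 19% of 19088 genes. These included *Wfdc2*, at 4, 2 and 0 counts in WT cortices 1, 2 and 3, and the other genes that did not pass the filter among cortices. Calls were lost for *Msx1* and *Slc13a4* without WT cerebellum 3 or WT cortex 2, for *Cab39l* without WT cortex 1, and for *Cab39l*, *Kcnj13* and *Msx1* without WT cortex 3.

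In *Snx14*-KO mice, 29 of 30 genes were called higher in cerebellum, against 18.2% of 18542 genes, with a median of 3.40. The 9 genes that did not pass the filter on low counts among cortices were all tested and called here. They entered through their counts in cerebellum, so the filter itself favored a higher call for them. All 30 were without overlap between tissues, against 29.8% of all genes in that direction. *Ttr* had 8.71 (standard error 0.568, adjusted p = 8.89e-07 by edgeR with Benjamini-Hochberg adjustment), and *Kl* 4.45 (standard error 0.268, adjusted p = 5.16e-07 by the same edgeR test). *Slc4a5*, at 8.28 to 21.5 CPM in cerebella and 0.0548 to 0.312 CPM in cortices, had 6.29. *Slc2a12*, at 14.3 to 21.5 CPM in cerebella and 11.4 to 14.0 CPM in cortices, had 0.49 (adjusted p = 0.0279 by edgeR), which is under the limit on size. It was called without *Snx14*-KO cerebellum 3 or *Snx14*-KO cortex 1, and *Lbp* was not called without *Snx14*-KO cortex 3. *Cab39l* and *Spint2* had 0.89 and 0.90, the lowest of the genes called.

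**Figure D5:**
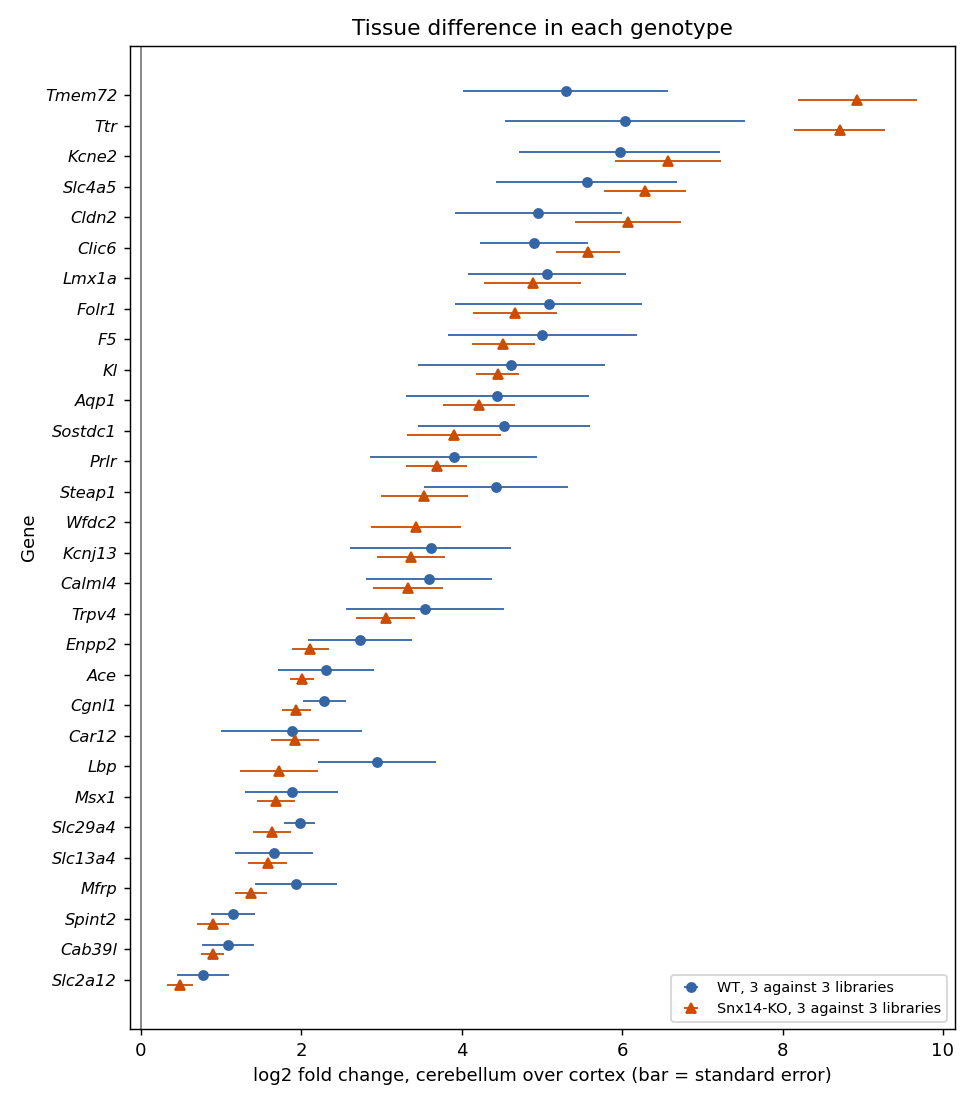
Log2 fold change of cerebellum over cortex for each gene in WT (blue circles) and *Snx14*-KO mice (orange triangles), with the standard error worked back from the edgeR F statistic as bars, ordered by the *Snx14*-KO value. All points are above 0, the WT bars are mostly the longer ones, and *Tmem72* had only 1 count in the 3 *Snx14*-KO cortices together, so its fitted value there depends on the prior count.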

How the data were processed

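RNA-Seq libraries were made from total RNA of cerebellum and cerebral cortex of 1-month-old mice. The authors mapped read pairs to GRCm38 with STAR, counted them on genes with featureCounts 2.0.1 without strand, and deposited raw counts per gene, where a pair overlapping several genes was counted for each. Rows that name no gene held 0.0506% to 0.0632% of the counts and were left out. Groups followed the sample titles, with 3 libraries each. Genes passing filterByExpr were fitted with edgeR 4.0.16 (quasi-likelihood test, TMM, R 4.3.3), with Benjamini-Hochberg adjustment over all genes tested. Standard errors were worked back from this test, as the absolute log2 fold change over the square root of its F statistic. The test was checked on simulated counts. DESeq2 1.42.0, RLE normalization, no filter, the replicate block and leaving out each library were the alternatives. TPM used the gene lengths in the deposited count files. The 30 genes, the other lists and the tests were chosen with earlier results of these data known. The text names all 30 genes, *Snx14*, the 12 genes nearest *Ttr* and up to 4 genes of a list by mean CPM, and any other gene is said to be chosen after its values were seen. Replicates differed beyond sampling noise (chi-square per gene of 6.00 or more). Precision is limited by 3 libraries per group.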

Additional observations from a re-analysis of the deposited data

How the results depend on the processing

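The genes called over all genes were few and depended on the tool, the filter and single libraries. In cerebellum, 1 gene was called between genotypes, against 164 by DESeq2, 347 with no filter on low counts and 1 to 254 with a library left out (254 without *Snx14*-KO cerebellum 2, 10 without WT cerebellum 2 and 2 without WT cerebellum 3). In cortex, 1 gene was called, against 9 by DESeq2, 149 with no filter and 1 to 2 with a library left out, and the interaction was called for 0 genes, against 40, 418 and 0 to 257 (257 without *Snx14*-KO cerebellum 2). With no filter, the quasi-likelihood test called 5 of the 30 genes in cortex (against 0.472% of 31561 genes) and 4 in the interaction (against 1.21% of 34466 genes), where *Ttr* was among them. No other setting called any of the 30 between genotypes, where DESeq2 gave no adjusted p for 8 of the 21 genes in cortex and 2 of the 30 in the interaction. With each library left out, log2 fold changes in cerebellum ran -0.72 to 0.76 (*Ace*), -1.23 to 0.80 (*Aqp1*), -0.66 to 0.22 (*Cab39l*), -1.17 to 0.44 (*Calml4*), -1.45 to 0.40 (*Car12*), -0.55 to 0.076 (*Cgnl1*), -1.15 to 0.56 (*Cldn2*), -1.25 to 0.23 (*Enpp2*), -1.40 to 0.29 (*F5*), -1.28 to 0.46 (*Folr1*), -1.67 to 0.31 (*Kcne2*), -1.34 to 0.64 (*Kcnj13*), -1.58 to 0.30 (*Kl*), -0.53 to 0.90 (*Lbp*), -0.88 to 0.39 (*Mfrp*), -0.51 to 0.77 (*Msx1*), -1.53 to 0.37 (*Prlr*), -0.0057 to 1.09 (*Slc13a4*), -0.68 to 0.17 (*Slc2a12*), -1.21 to 0.70 (*Slc4a5*), -1.29 to 0.73 (*Sostdc1*), -0.62 to 0.058 (*Spint2*), -1.43 to 0.15 (*Steap1*), -1.58 to 0.45 (*Tmem72*), -1.23 to 0.52 (*Trpv4*), -1.29 to 0.58 (*Ttr*), -1.12 to 0.40 (*Wfdc2*), and in cortex -0.049 to 0.19 (*Ace*), -0.78 to 0.12 (*Aqp1*), -0.23 to 0.22 (*Cgnl1*), -0.90 to 0.93 (*F5*), -1.22 to 0.032 (*Kl*), -0.034 to 0.27 (*Mfrp*), -0.018 to 0.43 (*Msx1*), -0.33 to 0.21 (*Slc29a4*), -0.49 to 0.41 (*Sostdc1*), -0.45 to 0.042 (*Trpv4*). Between tissues, 24 to 30 genes were called in WT (against 17.6% to 19% of all genes as higher) and 28 to 30 in *Snx14*-KO mice (16.7% to 18.4%) with a library left out. These counts include genes that did not pass the filter on low counts among the cortices. Normalization by RLE and DESeq2 kept every direction of the 30. Without TMM, the 30 genes made up 0.0537% to 1.28% of the gene counts of a cerebellum, with the 6 libraries in the same order as by summed CPM. With a pseudocount of 0.1, 16 of the 50 genes nearest *Ttr* were among the 30.

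Replicate numbers did not pair the libraries within a tissue (correlation of deviations -0.0917 to 0.0810, with 3 of 6 libraries in cerebellum and 3 of 6 in cortex closest to their own number). With the replicate number as a block, the median in cerebellum was -0.09, and *Ttr* had 0.51, *Folr1* 0.017, *Kcnj13* 0.075, *Sostdc1* 0.089, *Aqp1* 0.17, *Slc4a5* 0.088, *Trpv4* 0.030, *Lbp* 0.46, *Ace* 0.20 and *Msx1* 0.32, while *Slc29a4* in cortex had -0.018. Whether the same number in both tissues is the same mouse is not stated (correlation of deviations 0.0178 to 0.338). A block on genotype and number left 27 and 29 genes called between tissues in WT and *Snx14*-KO mice, against 18.9% and 17.8% of all genes as higher. Low counts limited the cortex values, where 9 of the 30 genes were not tested.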

Other observations

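*Otx2*, a homeobox factor of the choroid plexus that is also on the unipolar brush cell list, is named after its values were seen. It was at 7.66, 12.2 and 24.6 CPM in WT cerebella 1, 2 and 3 and at 10.5, 14.1 and 10.3 CPM in *Snx14*-KO cerebella. In cortex it was at 1.49, 0.536 and 0.682 CPM in WT and 0.312, 0 and 0.179 CPM in *Snx14*-KO mice, with the highest value again in WT cortex 1. The ciliary gene *Dnah11* of the ependymal list was at 13.4, 13.8 and 20.3 CPM in WT cerebella and 15.1, 14.9 and 12.1 CPM in *Snx14*-KO cerebella. It was at 0.437 to 2.41 CPM in the 6 cortices.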
